A study of Mus musculus with 6 samples.

Results

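Crabp1 and 8 other genes that carry, make, degrade or sense retinoic acid were described in mouse fibroblasts with an RNA polymerase II that cannot be acetylated at its tail. The 9 genes are Stra6, Aldh1a2, Aldh1a3, Crabp1, Crabp2, Cyp26b1, Rara, Rarb and Rarg, out of 17145 genes tested. They were chosen with measured values of this comparison known, since Crabp1 had stood out among the lower genes, so their differences between the groups are given as a description, with no p-value, and a count of those past the threshold is given only beside that of all genes. The 95% intervals given with these differences are adjusted neither for this choice nor for the number of genes tested. Each of the 9 had 1 probe set with a single gene symbol, and all 9 passed the filter on low signal.

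The cells were NIH/3T3, an immortalized mouse fibroblast line, and 3 samples stably expressed HA-tagged 8KR RPB1 while the other 3 stably expressed HA-tagged wild type RPB1. RPB1 is the largest subunit of RNA polymerase II, and in 8KR every lysine at position 7 of the repeats in its C-terminal domain is replaced by arginine, which keeps the charge but cannot be acetylated. Both groups were kept in α-amanitin, an inhibitor of the cells' own RNA polymerase II, at 2 ug/ml, and the medium held bovine calf serum at 10%. RNA of each sample was hybridized to 1 Affymetrix Mouse Gene 1.0 ST array, and values are log2 signals of a probe set, the group of probes that reads a transcript. The samples are called biological replicates. The sources used here do not say whether the 3 of a group share 1 transfected population. Standard errors and tests then cover only the spread between these samples.

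Retinoic acid is made from vitamin A inside cells: retinol is taken up, oxidized to retinaldehyde, and oxidized again to retinoic acid. Small binding proteins carry the acid through the cytoplasm, enzymes of the Cyp26 family hydroxylate it for clearance, and nuclear receptors of the RAR family, paired with RXR partners, bind it and change transcription at response elements in target genes. Fibroblasts are a mesenchymal cell type in which retinoic acid is known to act on growth and on matrix genes.

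The 6 arrays were alike in level, with median log2 signals of 4.53 to 4.54 in 8KR cells and 4.49 to 4.52 in wild type cells. Polr2a, which encodes RPB1, read 12.1 in both groups (log2 difference 0.03, standard error 0.07, limma adjusted p = 0.860), although the array does not tell the transgene from the cells' own gene. All 10 fibroblast markers passed the filter, with means of 6.99 to 12.1, and Col3a1 and Pdgfra among them were called lower in 8KR cells, at a limma adjusted p under 0.05. With single arrays left out, Pdgfra kept this call and Col3a1 lost it (adjusted p 0.0731 to 0.112). Summed over the list, the fibroblast markers ranged over 14.00 to 14.02 on the log2 scale in 8KR cells and 14.07 to 14.12 in wild type cells. The summed muscle markers ranged over 7.21 to 7.29 in 8KR cells and 7.50 to 7.56 in wild type cells, and the 8KR and wild type ranges overlapped in each of the leukocyte, endothelial, epithelial, adipocyte and embryonic stem cell lists. The neuron list ranged over 6.20 to 6.47 in 8KR cells and 6.11 to 6.19 in wild type cells. Means of the markers of other cell types were 2.40 to 6.40, and Ptprc, Adgre1 and Itgam of leukocytes, Kdr of endothelium and Adipoq of adipocytes lay below the filter. The part of these shifts in the results was not tested.

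Retinoic acid receptors bind response elements built from a repeated half-site, and 2 genes of retinoic acid signalling carry such a repeat close to their start. In RefSeq promoter windows (GRCm38.p6, 250 bases before to 50 after a start), the letters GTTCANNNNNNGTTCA, read on both strands, occurred in 25 of 32851 windows, or 0.0761%. Among the retinoid genes listed here that had a window, Rarb and Cyp26a1 held them. The stretches are shown because both genes are textbook targets of the receptors, and capitals mark the matched letters. Rarb lies on the minus strand and is shown at chr14:16575501-16575540. Cyp26a1 lies on the plus strand and is shown at chr19:37697764-37697803, where the match is on the opposite strand.
Rarb: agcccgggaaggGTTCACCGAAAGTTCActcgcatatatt
Cyp26a1: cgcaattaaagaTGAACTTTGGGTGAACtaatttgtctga
A different repeat, with the letters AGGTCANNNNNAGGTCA, occurred in 3 windows and in none of the retinoid genes that had a window. Crabp1, whose level differed most among the 9 genes, had neither repeat in its window, which says only that these letters are not in those bases. The 150 bases before its start, on the plus strand at chr9:54764598-54764747, are shown with the GC box letters GGGCGG, on either strand, in capitals.
Crabp1: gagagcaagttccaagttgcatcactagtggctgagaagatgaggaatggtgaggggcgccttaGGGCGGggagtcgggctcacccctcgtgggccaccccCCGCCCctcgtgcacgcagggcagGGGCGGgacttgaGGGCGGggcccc
These 150 bases held 4 GC boxes. The motif occurred at least once, on either strand, in 35.7% of all windows, which span 300 bases. Of the 9 genes, 7 had a RefSeq window. The GC box letters stood in 5 of those, namely Crabp1, Cyp26b1, Rara, Rarg and Stra6, beside 10324 of 27025 genes with a window.

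Crabp1 encodes the cytoplasmic retinoic acid binding protein that retains the acid and directs it toward breakdown. Its log2 signal was 8.80, 8.49 and 8.49 on the 8KR arrays, against 11.17, 11.28 and 11.39 on the wild type arrays. Every 8KR array lay below every wild type array. Crabp1 was chosen because it had stood out, so nothing is read from this separation. The means were 8.59 ± 0.18 in 8KR cells and 11.28 ± 0.11 in wild type cells (SD, n = 3 each), a log2 difference of -2.69 with a standard error of 0.12 and a 95% interval of -2.97 to -2.40. On the linear scale the signal was 6.43-fold lower in 8KR cells, yet it stayed far above 3.0, the cutoff that the methods take for background. An array of bulk RNA does not tell fewer cells with the transcript from less transcript per cell. Crabp2 encodes the related protein that hands retinoic acid to the nuclear receptors. It read 4.70, 4.72 and 4.63 in 8KR cells, against 4.74, 5.05 and 4.74 in wild type cells. The 8KR arrays lay just under the wild type arrays, with a log2 difference of -0.16 and a 95% interval of -0.43 to 0.11.

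**Figure D1:**
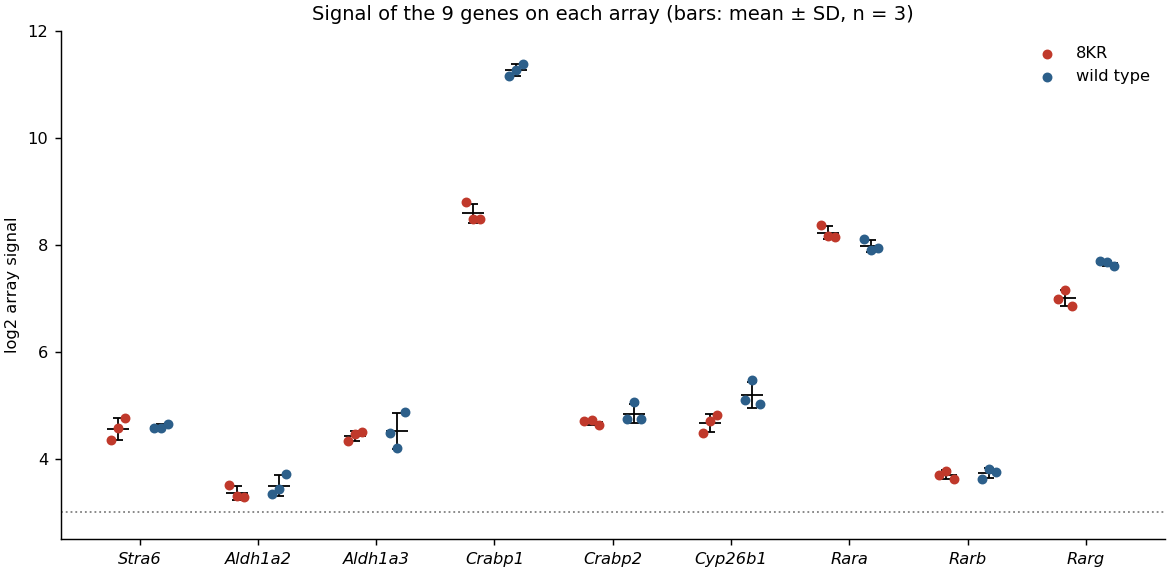
Log2 array signal (vertical axis) of the 9 genes (horizontal axis) on the 3 8KR arrays (red, left of each pair) and the 3 wild type arrays (blue, right), with 1 point per array and the mean ± SD in black. The dotted line marks the background cutoff of 3.0. The 8KR points of Crabp1 lie at 8.49 to 8.80 and its wild type points at 11.17 to 11.39, while Stra6, Aldh1a2, Aldh1a3 and Rarb overlap between groups.

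The 3 receptor genes did not move together. Rarg, the receptor known for its part in skin and skeletal development, read 6.99, 7.16 and 6.86 in 8KR cells, against 7.70, 7.68 and 7.60 in wild type cells. All 8KR arrays were lower, and the log2 difference was -0.66 (standard error 0.10, 95% interval -0.90 to -0.42), or 1.58-fold lower. Rara, the most widely expressed receptor of the family in adult tissues, read 8.38, 8.18 and 8.15 in 8KR cells, against 8.11, 7.91 and 7.94 in wild type cells. Here the 8KR arrays were slightly higher without overlap, by 0.25 on the log2 scale, with a 95% interval of -0.00 to 0.49. Rarb, the receptor gene that is itself a target of retinoic acid and carries the repeat shown above, read 3.70, 3.78 and 3.61 in 8KR cells, against 3.63, 3.81 and 3.76 in wild type cells. The groups overlapped near the background cutoff, with a log2 difference of -0.04 and a 95% interval of -0.25 to 0.18.

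Cyp26b1 encodes an enzyme that hydroxylates retinoic acid and so removes it. It read 4.48, 4.70 and 4.82 in 8KR cells, against 5.10, 5.47 and 5.02 in wild type cells. All 8KR arrays lay below all wild type arrays, with a log2 difference of -0.53 (standard error 0.15, 95% interval -0.90 to -0.16), or 1.44-fold lower. This interval is not adjusted for the number of genes tested, and Cyp26b1 was not among the genes called. Aldh1a2 and Aldh1a3, which encode enzymes that make retinoic acid, were low in both groups. Aldh1a2, the main such enzyme of the early embryo, read 3.51, 3.30 and 3.28 in 8KR cells, against 3.34, 3.43 and 3.72 in wild type cells. Aldh1a3, which acts in the eye and the nasal region of the embryo, read 4.33, 4.46 and 4.51 in 8KR cells, against 4.49, 4.20 and 4.88 in wild type cells. Both overlapped between groups, with log2 differences of -0.14 (95% interval -0.45 to 0.17) and -0.09 (95% interval -0.53 to 0.34). Stra6, the membrane receptor that takes up retinol from its plasma carrier, read 4.35, 4.57 and 4.75 in 8KR cells, against 4.57, 4.57 and 4.65 in wild type cells. The groups overlapped, with a log2 difference of -0.04 and a 95% interval of -0.33 to 0.25.

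A gene was called at an adjusted p under 0.05 from limma, with Benjamini-Hochberg adjustment over the 28543 probe sets tested. Crabp1 and Rarg were called, both lower, which is 2 of the 9, beside 5.39% of all genes called in either direction, 2.33% higher and 3.06% lower. Arrays of the groups did not overlap for 5 of the 9, namely Crabp1, Crabp2, Cyp26b1, Rara and Rarg, beside 29.7% of all genes. Because these values chose the genes, nothing is read from the counts. The count of 2 became 1 when any single array other than 8KR replicate 2 was left out. Over the alternatives, the log2 difference was -2.79 to -2.63 for Crabp1 and -0.73 to -0.59 for Rarg.

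The remaining genes of retinoid handling were counted from 8 lists by role, which held 66 genes besides the 9. Of these, 59 were tested, 3 rose, 3 fell and 53 did not pass, with a median log2 difference of 0.01, beside a median of 0.01 over all 17145 genes. Arrays did not overlap for 18 of the 59, beside 29.7% of all genes. The shares of all genes called were 2.33% higher and 3.06% lower. The oxidoreductases that interconvert retinol and retinaldehyde held 17 tested genes, of which 2 rose and 1 fell. Dhrs3, which reduces retinaldehyde back to retinol and is also listed as a retinoic acid target, read 7.80, 7.52 and 7.59 in 8KR cells, against 6.63, 6.67 and 6.65 in wild type cells. Every 8KR array was higher, by 0.99 on the log2 scale (standard error 0.10, limma adjusted p = 0.00709), or 1.99-fold. Dhrs9, a short-chain dehydrogenase that oxidizes retinol, read 6.06, 6.15 and 5.98 in 8KR cells, against 7.10, 7.27 and 7.12 in wild type cells. All 8KR arrays were lower, with a log2 difference of -1.10 (standard error 0.09, limma adjusted p = 0.00385), or 2.14-fold lower. Adh5, best known for clearing formaldehyde bound to glutathione, averaged 8.00 ± 0.06 in 8KR cells and 7.39 ± 0.04 in wild type cells (SD, n = 3 each; log2 difference 0.61, adjusted p = 0.0137 from limma). Without any one array other than 8KR replicate 2, the adjusted p of Adh5 was 0.0553 to 0.0610. Dhrs4, a retinaldehyde reductase, had a log2 difference of 0.50 (adjusted p = 0.0751), and Adh7, an alcohol dehydrogenase that oxidizes retinol, had -0.27 (adjusted p = 0.321).

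Among the retinaldehyde dehydrogenases besides Aldh1a2 and Aldh1a3, 2 of 3 fell, beside 3.06% of all genes called lower. Aldh1a1, which oxidizes retinaldehyde to retinoic acid in many adult tissues, read 6.39, 6.51 and 6.27 in 8KR cells, against 7.89, 7.45 and 7.69 in wild type cells. Aldh1a7, its close rodent paralog, read 6.82, 6.90 and 6.97 in 8KR cells, against 8.06, 8.05 and 8.15 in wild type cells. Both were lower on every 8KR array, Aldh1a1 by a log2 difference of -1.29 (standard error 0.13, limma adjusted p = 0.00833) and Aldh1a7 by -1.19 (standard error 0.08, limma adjusted p = 0.00239). Aldh8a1, the third, read near background, at 3.07 in both groups. Aldh1a1 and Aldh1a7 are so alike that probes of one may also bind transcripts of the other, so their values are not fully separate. Their likeness reaches into the promoters, and a stretch of each is shown with the 65 bases that are identical in both in capitals. Aldh1a1 is shown on the plus strand at chr19:20601859-20601953 and Aldh1a7 on the minus strand at chr19:20727571-20727665 (GRCm38.p6, RefSeq).
Aldh1a1: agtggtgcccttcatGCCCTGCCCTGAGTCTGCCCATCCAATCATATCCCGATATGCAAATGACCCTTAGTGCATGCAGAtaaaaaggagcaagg
Aldh1a7: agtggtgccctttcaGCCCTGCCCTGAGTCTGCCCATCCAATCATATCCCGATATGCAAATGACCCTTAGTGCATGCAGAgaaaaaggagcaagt
The identical stretch starts 94 bases before either start.

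**Figure D2:**
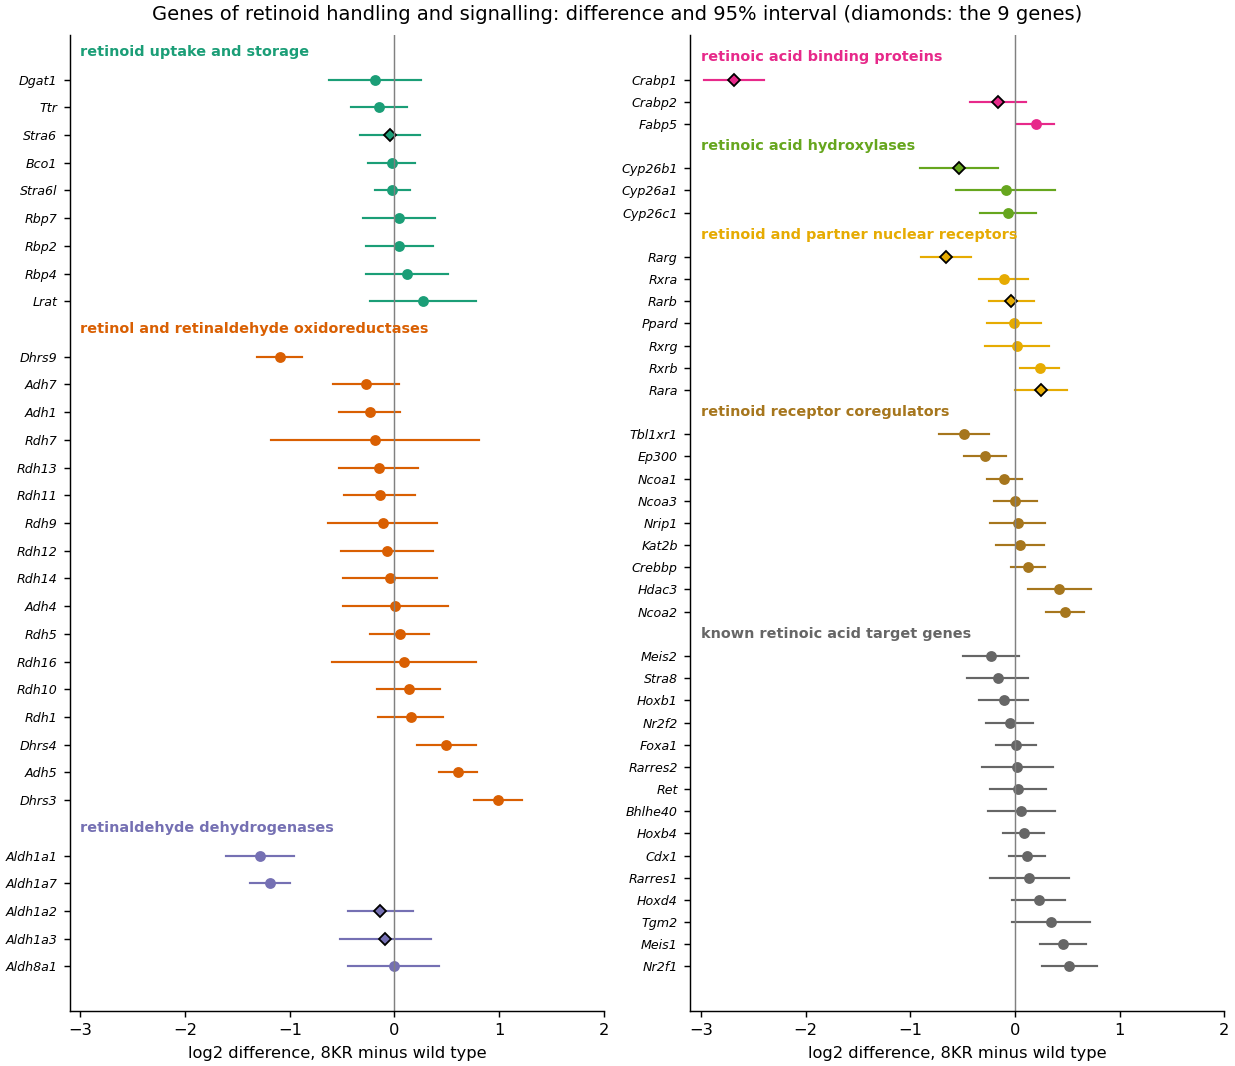
Log2 difference, 8KR minus wild type (horizontal axis), of the 68 tested genes of retinoid handling and signalling, grouped by role, with the 95% interval of each as a line and the 9 genes as diamonds. Crabp1 lies at -2.69, far left of every other gene shown, followed by Aldh1a1, Aldh1a7 and Dhrs9, and Dhrs3 lies furthest right at 0.99.

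The other roles held 1 more called gene. Ncoa2, a coactivator that nuclear receptors recruit, averaged 7.16 ± 0.06 in 8KR cells and 6.68 ± 0.05 in wild type cells (SD, n = 3 each; log2 difference 0.48, adjusted p = 0.0271 from limma). It was the 1 gene called of 9 coregulators tested, beside 5.39% of all genes called. Without any single array its adjusted p was 0.0723 to 0.0972. Tbl1xr1, a subunit of the NCoR corepressor complex, had a log2 difference of -0.48 (adjusted p = 0.0520), and Ep300, the acetyltransferase coactivator p300, had -0.29 (adjusted p = 0.126). A second probe set of Tbl1xr1 gave -0.24 (adjusted p = 0.518). No RXR gene was called, with Rxrb at 0.23 (adjusted p = 0.159) and Rxra at -0.11 (adjusted p = 0.610). Fabp5, which carries retinoic acid as well as fatty acids, averaged 10.22 ± 0.01 in 8KR cells and 10.02 ± 0.06 in wild type cells (SD, n = 3 each), and its log2 difference of 0.20 did not pass (adjusted p = 0.203), nor did its second probe set (0.20, adjusted p = 0.201). The other hydroxylases, Cyp26a1 (-0.09, adjusted p = 0.849) and Cyp26c1 (-0.07, adjusted p = 0.799), did not pass either. None of the 8 tested genes of uptake and storage was called by limma. None had an unadjusted p under 0.05, beside 3746 of all 17145 genes. Those with the smallest adjusted p were Ttr, a plasma carrier (-0.15, adjusted p = 0.525), and Lrat, which esterifies retinol for storage (0.27, adjusted p = 0.544).

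Target genes of retinoic acid gave 1 call among the 17 tested besides the 9, beside 5.39% of all genes called. That gene was Dhrs3. The next were Meis1, a homeobox factor (log2 difference 0.46, adjusted p = 0.0515), and Nr2f1, an orphan nuclear receptor (0.52, adjusted p = 0.0583), and neither passed. The median over the 17 was 0.06. Of the 24 genes whose promoter window held the repeat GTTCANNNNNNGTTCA, 9 were tested and 1 was called, Lcorl, at -0.44 (adjusted p = 0.0427, and 0.0850 to 0.132 with single arrays left out). The median over those 9 was 0.01. Cyp26a1, which holds the repeat, averaged 3.19 ± 0.38 in 8KR cells and 3.28 ± 0.10 in wild type cells (SD, n = 3 each), so it lay at the background cutoff in both groups.

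Crabp1, Stra6 and Aldh1a2 all lie on chromosome 9, in that order, and the genes around them were set beside them. Of the 20 tested genes nearest to Crabp1, 10 on each side, 3 fell and none rose, and 13 had a difference below 0, with a median of -0.20 on the log2 scale. By limma, 8 of the 20 had an unadjusted p under 0.05. Among all 17145 genes, 3746 had such a p, and 3.06% were called lower and 2.33% higher. Hykk, hydroxylysine kinase, which is the second gene past Crabp1, averaged 4.22 ± 0.15 in 8KR cells and 5.04 ± 0.06 in wild type cells (SD, n = 3 each; log2 difference -0.82, adjusted p = 0.0140 from limma). Idh3a, a subunit of the mitochondrial isocitrate dehydrogenase on the other side, averaged 6.96 ± 0.07 in 8KR cells and 7.66 ± 0.14 in wild type cells (log2 difference -0.70, adjusted p = 0.0201 from limma, n = 3 each). Psma4, a proteasome subunit, was lower by a smaller amount, with a log2 difference of -0.46 (adjusted p = 0.0481 from limma). The genes directly beside Crabp1 did not pass, Wdr61 with a log2 difference of -0.48 (adjusted p = 0.0733) and Ireb2 with -0.21 (adjusted p = 0.265). Dmxl2, 6 genes away, stood on the other side of 0 at 0.85 (adjusted p = 0.256), with 8KR arrays from 4.16 to 5.38. The difference of Crabp1 lay outside the -0.82 to 0.85 covered by its 20 neighbours. Crabp1 was chosen because it had stood out among the lower genes, so nothing is read from this. All 3 calls were lost without 8KR replicate 1 or any single wild type array, and Hykk alone kept its call without 8KR replicate 2 or 3. With the arrays left out in turn, the adjusted p was 0.0348 to 0.0609 for Hykk, 0.0556 to 0.0776 for Idh3a and 0.0978 to 0.133 for Psma4.

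The lower values ran along the whole of chromosome 9. Over its 526 tested genes with a mean signal above 5.0, the median log2 difference was -0.25, and 85.6% of them were below 0, beside 4802 of the 9601 such genes in all. Of the 526 genes, 80 were called lower and 1 higher, beside 468 lower and 365 higher of the 9601. This median was the lowest of any chromosome, and the largest deviation of an array from the others of its group was 0.02. At the same brightness, 29 genes lay between Crabp1 and Stra6, with 5 called lower, none higher, 27 below 0 and a median of -0.32. Between Stra6 and Aldh1a2 lay 80, with 14 called lower, 1 higher, 70 below 0 and a median of -0.24. Over all tested genes, dim ones included, the medians of these stretches were -0.22 (49 genes) and -0.15 (119 genes). Of the 10 tested genes nearest to Stra6, 5 on each side, limma called 2 lower, beside 3.06% of all genes, and the median was -0.06. They were Ubl7 (log2 difference -0.59, adjusted p = 0.0292) and Pml (-0.56, adjusted p = 0.0259), the organizer of nuclear bodies, each 4 genes away. Of the 10 nearest to Aldh1a2, 3 were called lower, and the median was -0.11. They were Adam10 (-0.47, adjusted p = 0.0264), a membrane protease, Polr2m (-0.44, adjusted p = 0.0311), a subunit that joins RNA polymerase II, and Zfp280d (-0.63, adjusted p = 0.0424), a zinc finger protein. Leaving out any single array took Pml (adjusted p 0.0582 to 0.0922), Adam10 (0.0686 to 0.0954), Polr2m (0.0806 to 0.107) and Zfp280d (0.0739 to 0.128) past the threshold, and Ubl7 (0.0448 to 0.0987) kept its call only without wild type replicate 3.

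**Figure D3:**
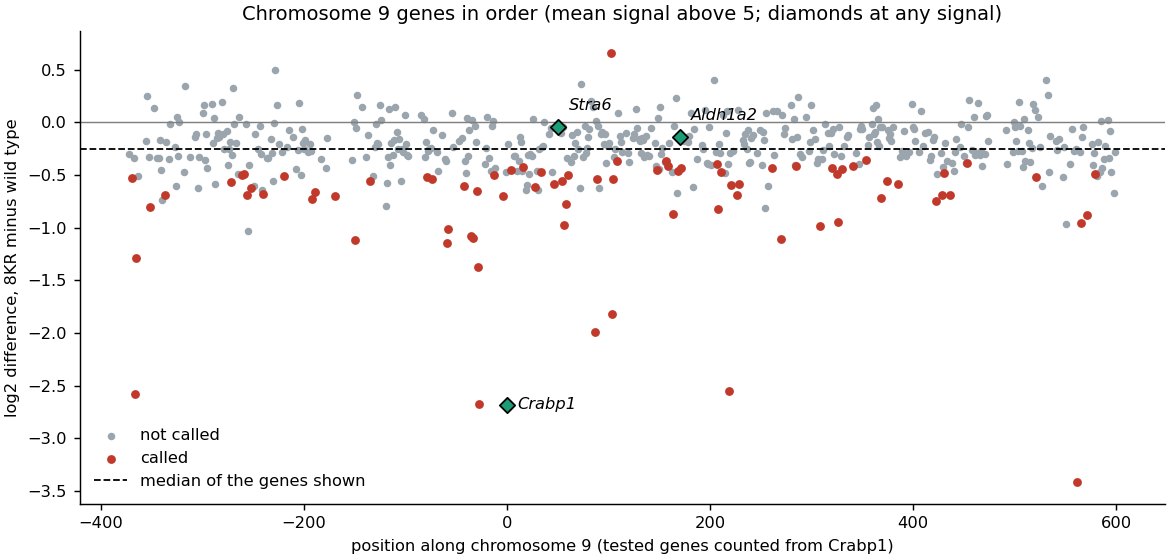
Log2 difference, 8KR minus wild type (vertical axis), of tested chromosome 9 genes with a mean signal above 5.0, in gene order counted from Crabp1 (horizontal axis), with called genes in red, others in grey and Crabp1, Stra6 and Aldh1a2 as diamonds. Most points lie below 0 along the whole length, around the dashed median of -0.25, and Crabp1 lies at -2.69 with a few other genes near or below it.

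Set against its own chromosome, Crabp1 differed from the chromosome 9 median by -2.43 on the log2 scale. It was not alone, since Cck had a lower difference on this chromosome (-3.42) and Hoatz (-2.67), Casp4 (-2.58) and Col12a1 (-2.56) were close to it, genes named after their values were seen. Stra6 lay 0.21 and Aldh1a2 0.12 above the median, but both are dimmer than the genes it was taken over, and with genes of a mean above 4.0 it was -0.19. Rarg lies on chromosome 15, whose median was -0.22, the second lowest, with 82.3% of 385 genes below 0, and the difference of Rarg from that median was -0.44. Of the 10 tested genes nearest to Rarg, limma called 2 lower and none higher, with a median of -0.21. Over all genes, 3.06% were called lower and 2.33% higher. The 2 were Igfbp6 (log2 difference -0.79, adjusted p = 0.00623), which binds insulin-like growth factors, and Pfdn5 (-0.46, adjusted p = 0.0263), a chaperone subunit, each 4 genes away. Aldh1a1 and Aldh1a7 lie on chromosome 19, where the median was -0.18. Cyp26b1 and Rarb lay on chromosomes with medians above 0, and their differences from the medians of chromosomes 6 and 14 were -0.60 and -0.18. Rarb, with means of 3.70 in 8KR and 3.73 in wild type cells, is dimmer than the genes behind these medians. Cyp26b1, with means of 4.67 and 5.20, lies near their lower bound of 5.0. Rara lay 0.24 above the median of chromosome 11. Of its 10 nearest tested genes, whose median was 0.14, limma called 1. That was its direct neighbour Cdc6, a factor that licenses replication, which rose by 0.59 (adjusted p = 0.0242). Igfbp6 kept its call without any single array (adjusted p 0.0292 to 0.0379), and Pfdn5 (0.0780 to 0.0933) and Cdc6 (0.0676 to 0.0913) did not. None of the 10 nearest tested genes of Crabp2, Rarb, Aldh1a3 or Cyp26b1 was called by limma. Those with an unadjusted p under 0.05 numbered 1, 1, 0 and 2, beside 3746 of all 17145 genes. Medians of the chromosomes ran up to 0.29, on chromosome 18. The part of these chromosome-wide shifts in the values of single genes was not tested, and differences between the cell populations that carry each RPB1 cannot be told apart from the effect of 8KR itself.

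**Figure D4:**
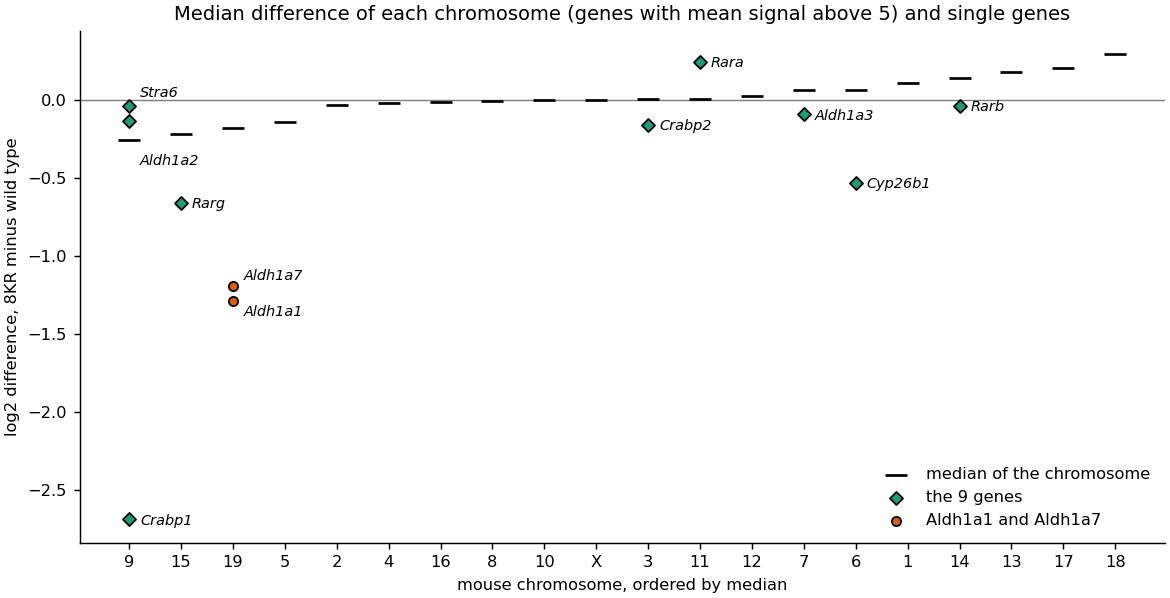
Median log2 difference, 8KR minus wild type (vertical axis), of genes with a mean signal above 5.0 on each mouse chromosome (horizontal axis, ordered by median), as black bars, with the 9 genes as diamonds and Aldh1a1 and Aldh1a7 as circles. Crabp1 at -2.69 lies far below the chromosome 9 median of -0.25, and Stra6 and Aldh1a2 lie above it.

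Over the 6 arrays, the genes whose level followed that of Crabp1 most closely were Igfbp6 (Pearson r = 0.9999), Aplp2 (0.999), Ptx3 (0.999), Cd34 (0.998) and Recql (0.998). The lowest r belonged to Rassf2 (-0.9993), Smchd1 (-0.9992) and Marcksl1 (-0.9991). These values describe the 6 arrays only, and they share the difference between the groups, so a gene with any even shift between 8KR and wild type cells has an r close to 1 or -1. Ptx3, a pentraxin secreted by fibroblasts, read 6.60, 6.42 and 6.40 in 8KR cells, against 7.82, 7.92 and 8.04 in wild type cells. Cd34, a surface sialomucin, read 8.15, 7.86 and 7.80 in 8KR cells, against 9.69, 9.63 and 9.83 in wild type cells. In both genes, as in Crabp1, 8KR replicate 1 was the highest of the 8KR arrays. Both were picked for their likeness to Crabp1 over these same arrays, so nothing is read from this order.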

How the data were processed

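Gene expression was profiled on 6 arrays, 3 of 8KR and 3 of wild type cells, grouped by the genotype in the sample labels. The deposited values are log2 signals per probe set, normalized by the authors. Affymetrix Power Tools 1.12.0 stands in the submitters' processing notes. The sources used here name neither the normalization nor a genome build, and the values were not centred per gene.

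Following the methods, 7014 of 35557 probe sets in which no group mean exceeded 3.0 were removed, and 28543 were fitted with limma 3.58.1 in R 4.3.3 (lmFit, eBayes, no covariates) with Benjamini-Hochberg adjustment. Symbols came from the platform annotation (21789 probe sets with 1 symbol, 1621 with several, 12147 with none), updated through Entrez identifiers with RefSeq (GRCm38.p6). The brightest single-symbol probe set over the 6 arrays stood for a gene. Neighbours follow the order of that table. The number of arrays limits the precision. The 9 genes, the lists and the rule for named genes were chosen with earlier results of these data known. The rule named the 9 genes, the called genes and the next 2 by adjusted p of each list, 10 tested genes on either side of Crabp1, called genes among 5 on either side of the others, and the genes with the 5 highest and 3 lowest correlations with Crabp1. Lcorl and the lowest genes of chromosome 9 were named after their values were seen. The fit was also run on simulated data with independent noise and planted differences. That run checks the code only, and nothing is read from it about these arrays. Samples sharing a replicate number did not deviate together. Figures were drawn with matplotlib 3.10.9 in Python 3.11.15.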

Additional observations from a re-analysis of the deposited data

How the results depend on the processing

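The log2 difference of Crabp1 stayed between -2.79 and -2.63 under every alternative run. In the alternatives that gave them a value, those of Rarg, Cyp26b1, Crabp2, Aldh1a2 and Rara kept their direction, whereas those of Aldh1a3, Stra6 and Rarb crossed 0 in some. Of the 9 genes, 2 were called, 1 (Crabp1) with the replicate block, and 1 to 2 with single arrays left out. The 6 other retinoid genes called became 10 with a group mean above 5.0, 11 with an intensity trend and 9 with adjustment over genes. They became 7 with median centring or quantile normalization, 1 with the replicate block (Aldh1a7), and 4 to 5 with single arrays left out. The 3 called neighbours of Crabp1 became 5 with a group mean above 5.0, 5 with an intensity trend and 4 with adjustment over genes. They became 2 without a filter, 0 with the replicate block, and 0 to 1 with single arrays left out. Over all genes, 924 calls (5.39%) became 1737 (17.6% of 9883) with a group mean above 5.0 and 1528 (8.91%) with an intensity trend. They became 1095 with adjustment over genes, 907 with median centring, 961 with quantile normalization and 692 (3.47% of 19938) without a filter. With the replicate block they became 63, and with single arrays left out 274 to 293. The labels do not say whether replicate numbers pair the samples. Correlations of same-numbered deviations over the tested probe sets were -0.01, 0.01 and -0.00, so no shared deviation was seen. Of the 17 genes called among the other retinoid genes and the neighbours, 15 kept their call without a filter, 1 with the replicate block and 5 to 7 with single arrays left out, and all 17 kept it with quantile normalization, median centring, array weights, an intensity trend, the mean of a gene's probe sets, the stricter filter, and adjustment over genes. The chromosome 9 median was -0.19 with a mean above 4.0, -0.28 with a mean above 6.0, -0.26 after quantile normalization, and -0.26 to -0.24 with single arrays left out. These last alternatives were chosen after seeing the data. Genes near the cutoff of 3.0, such as Rarb and Aldh1a2, had little room to show a fall.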
